A study of Drosophila melanogaster with 2 samples.

Results

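Intergenic peaks near gene starts are places where the ranshi-eGFP fusion protein was mapped outside every annotated gene, yet within 5000 bp of a transcript start. They were chosen by position alone, from the conservative peak set of the series. A peak was a member when its summit, the base of highest signal, lay more than 500 bp and at most 5000 bp from the closest transcript start and inside no annotated gene. The rule found 287 of 2984 conservative peaks (9.62%). The other conservative peaks were 1425 promoter peaks within 500 bp of a start, 739 intronic and 74 exonic peaks in the same distance range, and 459 peaks farther than 5000 bp from any start.

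The measurement was chromatin immunoprecipitation followed by sequencing (ChIP-seq) in whole Drosophila melanogaster embryos of 0 to 24 h. The flies were the transgenic strain ranshi-GFP, with an insertion that gives a ranshi protein fused to eGFP, and chromatin sonicated to a size range of 200 to 800 was pulled down with an antibody against GFP. There was 1 group, in 2 biological replicates, and no second genotype, stage or treatment was compared. Control libraries and read depth were not analysed here, so no value is given relative to an input or mock pull-down. The sample pools all embryonic cells of a day of development, so fewer cells with the protein at a site and less protein per cell cannot be told apart.

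The product of ranshi belongs to the ZAD zinc finger proteins, a large insect family of DNA-binding proteins that carry a zinc-finger associated domain at their amino end. Its paralogue ouib is known for switching on an enzyme gene of ecdysone synthesis, and M1BP, another ZAD protein, binds the core promoter element Motif 1. Intergenic sequence a few kilobases from a gene start often holds enhancers, insulators or starts of transcripts that are not annotated. The closest gene is a landmark and need not be the gene that such a site acts on.

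The members of highest signal were scattered over the arms, and no sequence was seen in common across the summits shown here. The 61 bases around the summit are shown for 12 of the highest members, all read on the plus strand of dm6 from the RefSeq assembly, because the base composition and the words described further on can be seen in them. Capitals mark CACTG or its reverse complement CAGTG, which here stood only at the slp2 summit, in 2 copies.
lncRNA:CR45643, 3R:16222459-16222519: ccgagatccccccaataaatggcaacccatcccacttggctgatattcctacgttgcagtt
CG31668, 2L:2202383-2202443: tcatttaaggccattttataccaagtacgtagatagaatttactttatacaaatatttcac
sp3, 3R:21520339-21520399: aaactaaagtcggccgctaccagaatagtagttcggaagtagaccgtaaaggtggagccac
CG17896, X:493974-494034: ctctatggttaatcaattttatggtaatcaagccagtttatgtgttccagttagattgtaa
foxo, 3R:14053568-14053628: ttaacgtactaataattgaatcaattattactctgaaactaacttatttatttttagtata
CG43245, 3L:10776537-10776597: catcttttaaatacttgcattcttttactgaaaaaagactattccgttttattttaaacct
CG10479, 3L:5976478-5976538: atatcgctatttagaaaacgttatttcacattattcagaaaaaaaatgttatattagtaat
lncRNA:CR42794, X:5696485-5696545: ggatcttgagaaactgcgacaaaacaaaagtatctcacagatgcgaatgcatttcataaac
jp, 2L:9567472-9567532: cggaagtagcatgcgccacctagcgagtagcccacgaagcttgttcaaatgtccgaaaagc
DNAlig3, 3R:12403101-12403161: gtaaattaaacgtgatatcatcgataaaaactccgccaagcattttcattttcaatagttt
lncRNA:CR45695, 2L:1643455-1643515: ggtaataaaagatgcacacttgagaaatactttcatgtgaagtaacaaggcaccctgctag
slp2, 2L:3832486-3832546: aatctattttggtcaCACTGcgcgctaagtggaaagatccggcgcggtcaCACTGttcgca

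Most of these windows were rich in A and T, with 18% G+C at foxo and 19.7% at CG10479, while jp (54.1%), slp2 (52.5%), lncRNA:CR45643 (50.8%) and sp3 (49.2%) were not.

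The signal of a peak is the authors' own value from the peak caller and is used here to order and describe peaks within a list. It is not scaled between lists, so the replicate values set side by side show each list's own level and not a difference between replicates. The highest member was at 3R:16222362-16222642, 906 bp upstream of the non-coding RNA gene lncRNA:CR45643. Its signal was 1252 in the series list (rank 19 of 2984), 874 in the replicate 1 list and 366 in the replicate 2 list. It was the single member above 1000, and the next were clearly lower. The member at 2R:22802853-22803088 had 751 in the series list, 558 in replicate 1 and 194 in replicate 2, and its closest start was that of CycB, the mitotic cyclin B gene, 3325 bp away past the far end of the gene. The member near CG31668 had 666, with 476 in replicate 1 and 205 in replicate 2. The member 559 bp upstream of sp3 had 665, with 417 in replicate 1 and 261 in replicate 2. All 15 members of highest signal were in the thresholded set of each replicate. So were 98.6%, for each replicate, of the highest of 4 equal groups of members by signal, and signal is not independent of these sets. The replicate 1 list had the higher value at every one of the 15 but jp. That order held for 242 of the 280 members with a candidate in both lists (86.4%). The median ratio of replicate 1 to replicate 2 was 1.77. The other conservative peaks also had the higher median in the replicate 1 list, 91.4 against 49.1 in the replicate 2 list. The order was thus not particular to the members.

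The member 3347 bp upstream of foxo, a forkhead transcription factor gene of the insulin pathway, had a series signal of 550, with 391 in replicate 1 and 159 in replicate 2. The member between slp1 and slp2, neighbouring forkhead genes of segmentation, lay 4324 bp upstream of slp2 and had 391, with 288 at rank 265 of the replicate 1 list and rank 490 in the replicate 2 list. A further member lay 4535 bp upstream of foxo, with a series signal of 176, so the members of both genes were several kilobases upstream. The jp gene encodes junctophilin, a protein that joins the plasma membrane to the endoplasmic reticulum, and the member 752 bp upstream of it had a series signal of 440. That member was the exception in the order of replicates, with a signal of 138 at rank 891 of the replicate 1 list and of 302 at rank 40 of the replicate 2 list. The member closest to the start of DNAlig3, a DNA ligase gene, had 226 in replicate 1 and 212 in replicate 2 and lay in a gap of 437 bp between the ends of Sol1 and Cyp9f2, so that its closest start belonged to neither neighbour. The other highest members were CG17896, CG43245, CG10479, lncRNA:CR42794, lncRNA:CR45695, CG14762 and tRNA:Phe-GAA-1-7, with series signals from 375 to 610.

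**Figure D1:**
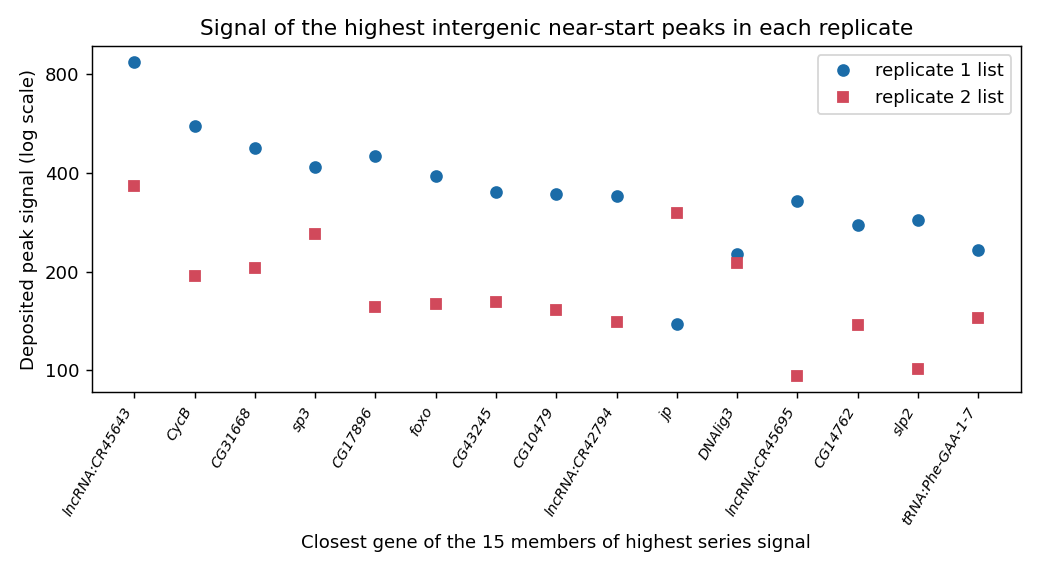
Deposited peak signal (log scale) of the 15 members of highest series signal in the replicate 1 list (circles) and the replicate 2 list (squares), from lncRNA:CR45643 on the left to tRNA:Phe-GAA-1-7 on the right. The circle stands above the square for every member but jp, and the lists are not scaled to each other (median ratio of 1.77 over members with both candidates).

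Over all 287 members the median series signal was 121, with quartiles of 95.6 and 188, against a median of 160 for promoter peaks (quartiles 104 and 262) and 134 for intronic peaks in the same distance range (quartiles 95.3 and 204). The median of the members was 0.755 of that of promoter peaks. The order depended on the replicate, since peaks of the same class in the replicate 1 set had 0.699 of the promoter median and those in the replicate 2 set 1.02 of it. In width, 200 of 287 members were 316 bp, the greatest width among them, and the narrowest was 79 bp. Neighbouring members overlapped in 8 pairs, so the members are not all separate sites. The sum of the replicate signals was close to the series signal for most members, with a median ratio of 1.01 and quartiles of 0.988 and 1.03, but 8 members had a series signal under 50, and the highest ratio was 29.2. The lowest of them were near Mdr49 (signal 3.36) and Gr93a (3.48).

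Nearly all members were seen in both replicates as candidate peaks. Fewer were in the thresholded set of replicate 2 than in that of replicate 1, as was so over all conservative peaks. A replicate 1 candidate overlapped 281 members (97.9%) and a replicate 2 candidate 286 (99.7%), against 98.4% and 99.3% of the other conservative peaks. The candidate lists are long, and they also overlapped 78.9% and 62.7% of the uncalled candidates of the same range. The thresholded set of replicate 1 held 249 members (86.8%, exact 95% interval 82.3 to 90.5%), and the replicate 1 share over all conservative peaks was 86.5%. That of replicate 2 held 179 members (62.4%, 56.5 to 68%), with 65.5% over all conservative peaks and 50.3% of peaks beyond 5000 bp. Both sets held 159 members (55.4%), with 59.5% over all conservative peaks. Another 90 (31.4%) were in the replicate 1 set alone, 20 (6.97%) in the replicate 2 set alone and 18 (6.27%) in neither. The other conservative peaks had 26.6%, 5.97% and 7.56% in the same order. Intervals cover counting error only, and peaks are not replicates of a condition.

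Against promoter peaks, the members were less often in the replicate 2 set, at 62.4% of members and 71.7% of promoter peaks (difference −9.35 points, Newcombe 95% bounds −15.5 to −3.44; 2-sided Fisher's exact test with p adjusted by Benjamini-Hochberg over 8 tests, adjusted p = 0.00745). They were also less often in both sets, at 55.4% of members and 65.3% of promoter peaks (difference −9.93 points, −16.2 to −3.76; adjusted p = 0.00745, Fisher's exact test). In the replicate 1 set the shares were 86.8% of members and 87.4% of promoter peaks, a difference of −0.609 points (−5.31 to 3.29) that did not pass Fisher's exact test (adjusted p = 1). Against intronic peaks in the same distance range no share passed Fisher's exact test: in the replicate 2 set 62.4% of members and 64.8% of intronic peaks (difference −2.45 points, −9.09 to 4; adjusted p = 0.938), and in both sets 55.4% of members and 59.3% of intronic peaks (difference −3.87 points, −10.6 to 2.81; adjusted p = 0.694). The replicate 1 shares were 86.8% of members and 86.5% of intronic peaks (difference 0.291 points, −4.67 to 4.64; adjusted p = 1, Fisher's exact test).

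Signal moved with these shares, but is not independent of them. The series signal was close to the sum of the replicate signals for most members. With the members split by signal into 4 equal groups, 98.6% of the highest group were in the replicate 2 set, with 70.8% and 54.2% in the next groups and 26.4% in the lowest. Among conservative peaks above the median signal of the set, 86.7% of 120 members and 89.8% of promoter peaks were in the replicate 2 set, a difference that no longer passed (−3.1 points; adjusted p = 0.723, Fisher's exact test).

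**Figure D2:**
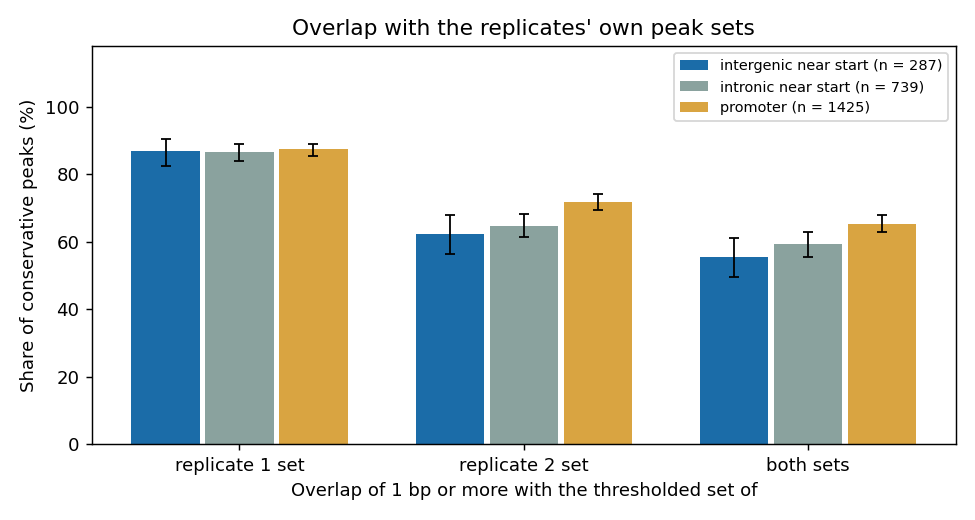
Share (%) of conservative peaks that overlapped, by 1 bp or more, the thresholded set of replicate 1, of replicate 2 and of both, for members (n = 287), intronic peaks 500 to 5000 bp from a start (n = 739) and promoter peaks (n = 1425); error bars are exact 95% binomial intervals. The classes stand level in the replicate 1 set, and members (62.4%) stand below promoter peaks (71.7%) in the replicate 2 set.

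The series list of ranked candidates gives the background for how often such a position was called. Of 10369 candidates with a summit in the same intergenic range, 287 were in the conservative set, which is 2.77% (2.46 to 3.1%), against 9.75% of promoter candidates, 4.22% of intronic candidates in range and 0.377% of exonic ones. Over all candidates the share was 3.36%, so the intergenic class stood a little below the background and well below promoters. The members amounted to 17.8 per Mb over the 16.1 Mb of intergenic sequence in that range.

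Within the range the members leaned toward starts. The distance to the closest start had a median of 1726 bp, and 85 members (29.6%, 24.4 to 35.3%) lay at 500 to 1000 bp, a bin that held 16% of the 10076 uncalled candidates of the same range. At 3000 to 5000 bp there were 76 members (26.5%, 21.5 to 32%) and 32% of the uncalled candidates. The members just inside the inner limit were near CG10479 (501 bp, signal 491), CG3348 (505 bp, 173) and CG43901 (507 bp, 81.8), and the peaks just outside it were near CG6959 (478 bp, 88.9), Sqor (477 bp, 109) and PHDP (473 bp, 191). At the outer limit the last members were near CG13171 (4986 bp, 97.7), lncRNA:CR44800 (4887 bp, 224) and yip3 (4860 bp, 146), and the first peaks beyond were near FBtr0304503_df_nrg (5016 bp, 214), lncRNA:CR45286 (5062 bp, 95.1) and CG31689 (5169 bp, 79.3). Signals on the 2 sides of each limit overlapped.

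Of the 287 members, 198 (69%) lay upstream of the closest start and 89 past the far side of the closest gene; among uncalled candidates of the same range 66% lay upstream. The genes that border the gap diverged, with both starts facing the member, in 29.6% of members (24.4 to 35.3%), and in 29.1% of uncalled candidates and 26.9% of the intergenic sequence in range. Genes stood in tandem around 51.2% of members and converged around 19.2%, against 52.1% and 18.8% of uncalled candidates. The arrangement of neighbouring genes around members was thus close to that around uncalled candidates. By arm, 77 members were on 2L (26.8%), 39 on 2R (13.6%), 79 on 3L (27.5%), 60 on 3R (20.9%) and 32 on X (11.1%), where uncalled candidates had 20.4%, 19.6%, 21.6%, 23.6% and 14.7% on the same arms. No member was on arm 4 or Y, where 1 and 2 uncalled candidates lay.

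Non-coding RNA genes were frequent neighbours. The closest start was that of a protein-coding gene for 195 members, of a non-coding RNA gene for 83 (28.9%, 23.7 to 34.5%), of a transfer RNA gene for 8 and of a small nucleolar RNA gene for 1. Non-coding RNA genes were closest to 5.96% of promoter peaks and 7.71% of intronic peaks. Among uncalled candidates in the same intergenic range their share was 29.8%, so the share among members was near that of the range itself.

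A promoter peak at the closest gene accompanied few members. Another conservative summit within 500 bp of a start of the closest gene was found for 44 members (15.3%, 11.4 to 20%), against 26.7% of intronic peaks (23.5 to 30%) and 5.84% of uncalled candidates. With both the member and that summit required to be above the median signal of the set, a stricter rule, the share was 8.33% of 120 members. Without that limit on signal, such a summit was found for 0 of the 15 members of highest signal (exact upper limit 21.8%). The members near Atf3, a bZIP transcription factor gene, near aop, which encodes the ETS repressor Yan, and near unc-5, a netrin receptor gene, were among those with one.

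Several gaps between genes held clusters of members. The most frequent closest gene was the non-coding RNA gene lncRNA:CR45737 on arm 3L, with 5 members. The gap between it and sty, the Sprouty gene whose product restrains receptor tyrosine kinase signalling, held 4 of them within 1615 bp, with series signals of 136 to 300; all 4 were in the replicate 1 set and 3 in the replicate 2 set. On its other side, the gap to the sulfatase gene Ids held 3 members with signals of 73.7 to 191. The gap between lncRNA:CR44761 and the F-box gene Ppa on 2R held 4 members within 1900 bp (signals 86.2 to 266), all in both replicate sets, although the last pair overlap and share the same replicate candidates.

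The gap between Cyt-c1L, a gene of the cytochrome c1 family of the respiratory chain, and lncRNA:CR31044 on 3R held 3 members, at 649, 3373 and 4056 bp upstream of Cyt-c1L. The middle one had the highest series signal of the 3, 169, with 96.1 in replicate 1 and 68.9 in replicate 2. It was the one of the 3 in both replicate sets. Upstream of the gustatory receptor gene Gr93a, 3 members lay within 758 bp (signals 3.48 to 102), some overlapping, of which 1 was in the replicate 1 set and 0 in the replicate 2 set, and another lay on the far side of the gene. The remaining gaps with 3 members were between lncRNA:CR44603 and lncRNA:CR45695 (signals 10.9 to 427) and between tRNA:Ile-TAT-1-2 and CG13898 (134 to 289). In all, 35 gaps held 2 or more members, 79 members together. The widest gap, 245765 bp between Pld and lncRNA:CR46075 on 2R, held a single member with a series signal of 105, followed by the gap of 75047 bp between NijA and CG43245 (signal 224) and that of 45988 bp between lncRNA:CR43298 and lncRNA:CR45482 (signal 75.5).

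Of the gene lists, those of developmental genes counted the most members. Their symbols were listed with the closest genes of the members already known, so the counts describe the members and carry no weight as evidence of a preference. Genes of the patterning and cell fate list were closest to 18 members (6.27%), against 2.11% of all conservative peaks and 1.81% of uncalled candidates, over 15 genes. The list was drawn up for transcription factors but also counted cpo and how, which encode RNA-binding proteins. Behind foxo and slp2 came Atf3, with a member 1881 bp upstream at a series signal of 317, 215 in replicate 1 and 105 in replicate 2. Others were aop and chinmo, with 2 members each as foxo had, hry and pnt. Signalling and adhesion genes were closest to 13 members (4.53%, against 2.18% of all conservative peaks and 1.32% of uncalled candidates). RasGAP1, a gene for an activator of Ras GTPase activity, had 2 members, at 687 bp (series signal 338; 237 in replicate 1 and 95.2 in replicate 2) and 1291 bp (190; 120 in replicate 1 and 88.1 in replicate 2) upstream. The adhesion gene ed followed with 243 and unc-5 with 236, where the replicates gave 113 in replicate 1 and 117 in replicate 2. Both had their member within 1000 bp of the start.

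The other lists counted fewer members each. Cell cycle genes were closest to 3 members (1.05%, against 0.302% of all conservative peaks and 0.0794% of uncalled candidates), CycB, DNAlig3 and PpV, a phosphatase gene with a series signal of 92.1. Oxidative phosphorylation genes were closest to 4 (1.39%, against 0.57% of all conservative peaks and 0.357% of uncalled candidates), of which 3 belonged to Cyt-c1L and 1 to RFeSP, the Rieske iron-sulfur protein gene (signal 122). Chemosensory receptor genes were closest to 5 (1.74%, against 0.201% of all conservative peaks and 1.45% of uncalled candidates), Gr93a with 4 and Gr89a with 1 (signal 166). Genes of the insulator, Polycomb and trithorax list were closest to 2 (0.697%, against 0.637% of all conservative peaks and 0.0595% of uncalled candidates). They were ph-d, in the gap between the paired polyhomeotic genes (signal 263, with 204 in replicate 1 and 49.8 in replicate 2), and Tet (79.9). Cuticle genes were closest to 2 (0.697%, against 0.101% of all conservative peaks and 1.24% of uncalled candidates), Cpr76Ba (259) and Cpr65Eb (107). The co-chaperone gene stv (204) was the single heat shock and chaperone gene (0.348%, against 0.302% of all conservative peaks and 0.0298% of uncalled candidates). The nuclear receptor gene Hr38 (70.9) was the single ecdysone response gene (0.348%, against 0.603% of all conservative peaks and 0.139% of uncalled candidates). The 2 added lists were innate immunity, closest to 5 members (1.74%, against 0.57% of all conservative peaks and 0.288% of uncalled candidates) and led by Sr-CIII (177), Sr-CI (120) and Tollo (113), and muscle and cytoskeleton, closest to 6 (2.09%, against 0.603% of all conservative peaks and 0.228% of uncalled candidates) and led by by, the tensin gene (346), stck (299) and Argk2 (145). Cytoplasmic and mitochondrial ribosomal protein genes, translation factors, glycolysis genes and ZAD genes were closest to 0 of 287 members, with an exact upper limit of 1.28% each. Among all conservative peaks, cytoplasmic ribosomal protein genes were closest to 1.41%, but among uncalled candidates of the same range to 0.228%, and the other 4 lists were closest to 0.201 to 0.268% of conservative peaks. These shares are below what a count of 0 can tell apart, except that of cytoplasmic ribosomal protein genes among all conservative peaks. No member lay within 5000 bp of ranshi, ouib, nom, trem or M1BP.

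Member summits were poor in G and C. Within 50 bp of the summit the mean G+C was 33.5% (SD 8.78 over 287 members; range 16.8 to 65.3%), against 33.9% at promoter summits, 32.1% at intronic summits and 45.1% at uncalled candidates of the same range. In windows 300 bp to each side of member summits it was 44.1%. The dip was therefore centred on the summits and shared with promoter and intronic peaks, while uncalled candidates had a slight rise there. Summits of the same class had 33.3% in the replicate 1 set and 36.6% in the replicate 2 set, but their flanks were not measured by replicate. The 93 peaks of the replicate 2 set that replicate 1 lacked had 40.8%. Only 29 of 287 members were above 45%, among them lncRNA:CR45643 (47.5%) and sp3 (48.5%). Repeat-masked bases made up 19% of the member windows, 24.2% at promoter summits and 14.2% at uncalled candidates.

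**Figure D3:**
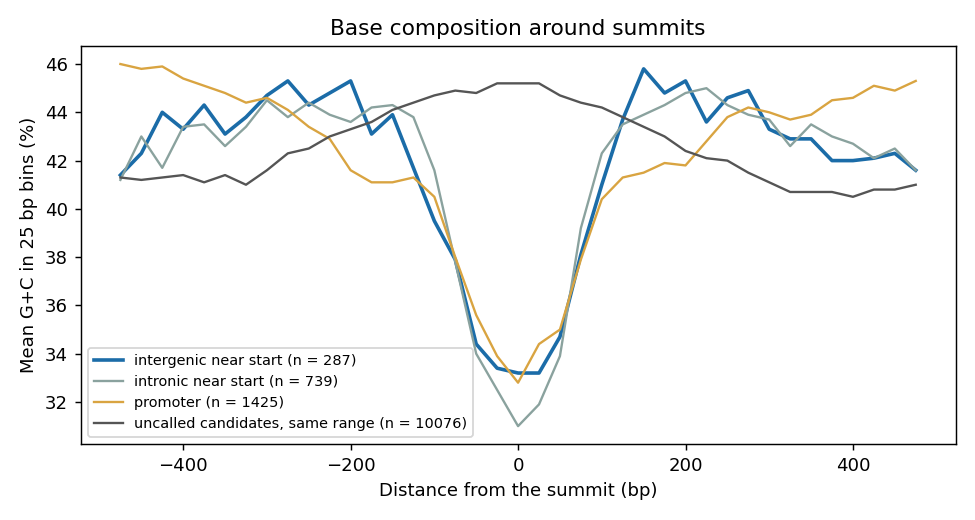
Mean G+C (%) in 25 bp bins against distance from the summit (bp) for members (n = 287), intronic peaks in the same distance range (n = 739), promoter peaks (n = 1425) and uncalled candidates of the members' range (n = 10076). Called peaks of each class plotted dip at the summit (33.5% within 50 bp in members, 44.1% in their flanks at 300 bp), and uncalled candidates (45.1%) do not.

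The word CACTG, found earlier over all peaks of the series, stood within 50 bp of the summit, on either strand, in 61 members (21.3%, 16.7 to 26.4%), with 20.2% over all conservative peaks. The share was 20.4% in promoter peaks (difference 0.903 points, −3.95 to 6.38; adjusted p = 1, Fisher's exact test, 2-sided) and 21.1% in intronic peaks (difference 0.145 points, −5.18 to 5.95; adjusted p = 1). In member windows 300 bp away it was 14.8%, and in uncalled candidates 19.2%. The backward word GTCAC stood in 6.27% of members and in 9.06% of their windows 300 bp away. Within 100 bp of the summit, CACTG was in 59.2% of members and 48.1% of promoter peaks, a difference of 11.2 points that passed Fisher's exact test (adjusted p = 0.00477). The window width therefore decided the call, and most copies of the word lay beside the summit and not on it.

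Read along their own strand, the copies leaned to one side. CACTGA lay mostly upstream of the summit, so that the summit was to its 3' side, and CACTGT mostly with the summit to its 5' side. These longer words, the sides and the distances were chosen after the data were seen, over members and other peaks together, after a ranking of all words of 6 and of 8 bases at member summits and trials of 31 words and several windows, so the shares are descriptions with no test. CACTGA with the summit 25 to 125 bp to its 3' side was present in 63 members (22%, 17.3 to 27.2%), with 15.5% over all conservative peaks. The other way round it was in 4.88% of members, the same share as in their windows 300 bp away. CACTGT with the summit 25 to 150 bp to its 5' side was present in 53 members (18.5%, 14.1 to 23.4%), with 20.7% over all conservative peaks, and in 21 members (7.32%, 4.59 to 11%) the other way round, where uncalled candidates had 4.74%. Either was present in 113 members (39.4%, 33.7 to 45.3%), with 34.1% over all conservative peaks, and in 11% of uncalled candidates of the same range. The median distance from the middle of the word to the summit was 77 bp for CACTGA and 78 bp for CACTGT.

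**Figure D4:**
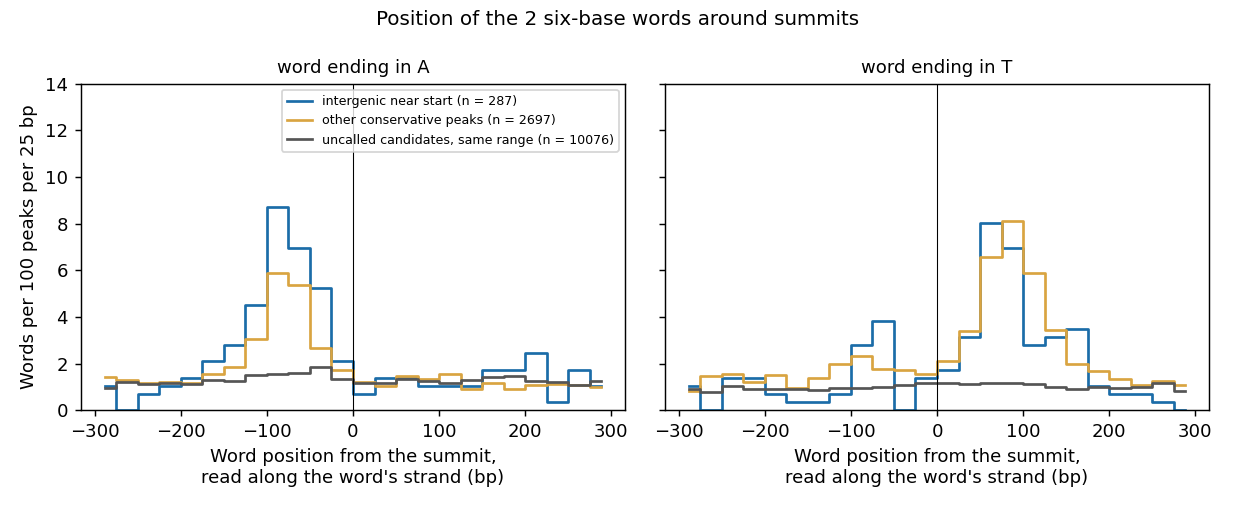
Copies of CACTGA (left) and CACTGT (right) per 100 peaks in 25 bp bins, against their position from the summit (bp) read along the strand of the word, for members (n = 287), other conservative peaks (n = 2697) and uncalled candidates of the same range (n = 10076). Copies pile up before the summit on the left and after it on the right (median distances of 77 and 78 bp in members), and uncalled candidates are nearly flat.

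Members of high signal with CACTGA on that side are aligned, 8 in all, on the word, in capitals, in 40 bases oriented so that the summit lies to the right of the line. They show the run of purines, mostly A, that follows the word in most of them.
lncRNA:CR42794, X:5696428-5696467, plus strand: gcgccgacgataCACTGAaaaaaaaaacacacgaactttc
slp2, 2L:3832563-3832602, minus strand: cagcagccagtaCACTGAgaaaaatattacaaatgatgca
lncRNA:CR45355, 2L:16535863-16535902, plus strand: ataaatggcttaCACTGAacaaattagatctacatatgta
by, 3R:9534378-9534417, minus strand: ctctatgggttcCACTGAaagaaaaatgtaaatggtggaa
lncRNA:CR45303, 2L:14502812-14502851, minus strand: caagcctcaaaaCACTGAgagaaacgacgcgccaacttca
stck, 3R:8355807-8355846, minus strand: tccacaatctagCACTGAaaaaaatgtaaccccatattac
aop, 2L:2180164-2180203, plus strand: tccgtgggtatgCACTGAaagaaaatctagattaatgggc
lncRNA:CR45251, 3L:11353122-11353161, plus strand: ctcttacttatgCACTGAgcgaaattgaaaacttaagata

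Over all 73 such copies in members, the base before the word was A or G in 91.8% and the base before that was T in 63%. After the word, A stood at the fourth base in 83.6%, at the fifth in 90.4% and at the sixth in 74%. The 460 copies in other conservative peaks had the same preferences, with 86.1% A or G before the word and A in 73.9%, 75.7% and 71.3% at those 3 places.

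Members of high signal with CACTGT are aligned likewise, in 40 bases oriented so that the summit lies to the left of the line. Of the 15 members of highest signal, 6 had the word on that side; 5 of them are among the lines, and CycB, which also had it, is not printed.
lncRNA:CR45643, 3R:16222393-16222432, minus strand: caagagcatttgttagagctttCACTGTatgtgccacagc
CG31668, 2L:2202468-2202507, plus strand: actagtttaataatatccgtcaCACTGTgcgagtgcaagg
CG43245, 3L:10776619-10776658, plus strand: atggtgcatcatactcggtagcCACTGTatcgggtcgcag
lncRNA:CR45695, 2L:1643513-1643552, plus strand: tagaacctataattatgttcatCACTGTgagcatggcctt
tRNA:Phe-GAA-1-7, 3R:13800632-13800671, plus strand: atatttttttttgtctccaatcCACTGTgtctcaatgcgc
lncRNA:CR43883, 3L:819623-819662, minus strand: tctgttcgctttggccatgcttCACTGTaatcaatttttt
lncRNA:CR45355, 2L:16535845-16535884, minus strand: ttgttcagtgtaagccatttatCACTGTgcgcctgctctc
Atf3, X:1277103-1277142, minus strand: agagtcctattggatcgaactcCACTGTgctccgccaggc

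The CACTGT copies lacked the run of A: after the word, A or G stood at the first base in 81.4% of the 70 copies in members and C at the second in 55.7%, and no later base was as uneven.

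A few members had the same word on both flanks, on opposite strands and each on its usual side, so that the summit lay between them. For CACTGA there were 9 such members (3.14%, 1.44 to 5.87%), with a median spacing of 150 bp, against 0.421% of promoter peaks, 2.57% of intronic peaks, 3.92% of peaks beyond 5000 bp and 0.208% of uncalled candidates. For CACTGT there were 15 (5.23%, 2.95 to 8.47%), with a median spacing of 166 bp, against 3.37% of promoter peaks, 8.8% of intronic peaks, 8.06% of peaks beyond 5000 bp and 0.288% of uncalled candidates. One member of each kind is shown on the plus strand, from just before the left copy to just after the right one, with both copies in capitals.
lncRNA:CR45303, CACTGA pair, 2L:14502697-14502849: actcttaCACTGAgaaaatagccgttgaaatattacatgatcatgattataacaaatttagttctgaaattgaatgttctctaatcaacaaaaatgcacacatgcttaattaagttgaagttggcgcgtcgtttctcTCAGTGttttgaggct
lncRNA:CR45643, CACTGT pair, 3R:16222383-16222595: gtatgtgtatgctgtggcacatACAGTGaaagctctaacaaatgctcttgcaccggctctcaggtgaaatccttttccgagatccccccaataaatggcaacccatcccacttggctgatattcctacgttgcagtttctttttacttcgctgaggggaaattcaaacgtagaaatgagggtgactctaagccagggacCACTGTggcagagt

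The lncRNA:CR45643 pair belongs to the member of highest signal, and the slp2 member carries a CACTGA pair around the 2 CACTG copies of its summit.

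Between classes, CACTGA on its facing side was present in 22% of members (17.3 to 27.2%), 9.4% of promoter peaks (7.94 to 11%), 19.1% of intronic peaks (16.3 to 22.1%) and 25.7% of peaks beyond 5000 bp (21.8 to 30%). CACTGT was present in 18.5% of members, 17.5% of promoter peaks, 25.8% of intronic peaks and 22.2% of peaks beyond 5000 bp. Promoter peaks thus had the lowest share of CACTGA, while for CACTGT the members were nearer to promoter peaks than to intronic ones; these differences were not tested. Either word was present in 39.4% of members, 25.3% of promoter peaks and 42.1% of intronic peaks.

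**Figure D5:**
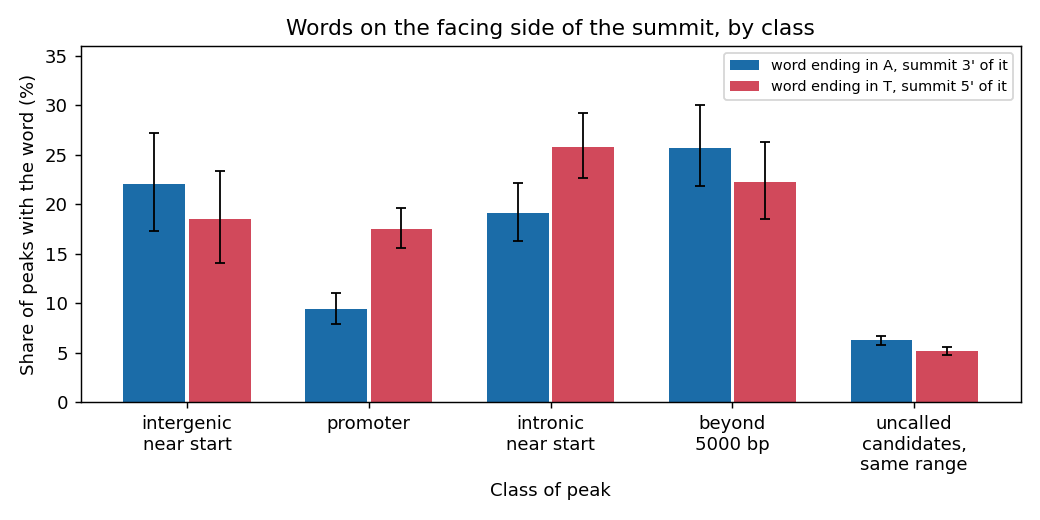
Share (%) of peaks with CACTGA and the summit to its 3' side (left bar) and with CACTGT and the summit to its 5' side (right bar), by class of peak, with exact 95% binomial intervals. Members have 22% and 18.5%, promoter peaks 9.4% and 17.5%, and uncalled candidates of the members' range 6.23% and 5.17%.

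Of 113 members with a facing word, 92.9% (86.5 to 96.9%) were in the replicate 1 set and 56.6% (47 to 65.9%) in the replicate 2 set. Of 174 without, 82.8% (76.3 to 88.1%) were in the replicate 1 set and 66.1% (58.5 to 73.1%) in the replicate 2 set. The intervals overlap, which does not show that members with and without a word are alike, and the differences were not tested. Among all peaks of the same class in each replicate's own set, shared ones included, the share with either word was 38.4% for replicate 1 and 30.9% for replicate 2. Among those in 1 set and not the other it was 36.3% for replicate 1 and 15.1% for replicate 2. Mean G+C at the summit was 31.5% with a word and 34.8% without. The median series signal was 128 with a word and 119 without, and in the 4 groups by signal the share with a word was 39.4%, 43.1%, 30.6% and 44.4% from the highest group to the lowest, with no steady order.

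Exact matches to a few known elements, searched within 50 bp of summits and on both strands, were rare among members. The panel was chosen after summit sequences had been seen and came from the same 31 words. The Motif 1 word GGTCACACT, which overlaps CACTG, stood in 1 member, slp2, where both summit copies belong to it, against 10 promoter peaks (0.702%) and 0.0298% of uncalled candidates. The DRE word TATCGATA stood in 1 member (0.348%), near lncRNA:CR45054, and in 3.3% of promoter peaks and 0.169% of uncalled candidates. The CTCF core GCGCCACCT stood in 2 members, jp and CG14762, both among the 15 highest, and in 0.421% of promoter peaks and 0.119% of uncalled candidates. The Su(Hw) core GCATACTT stood in 1 member, near CG43131 (0.348%), and in 0.702% of promoter peaks and 0.576% of uncalled candidates. GAGAGAG stood in 3 members (1.05%), 0.912% of promoter peaks, 1.31% of uncalled candidates and 2.96% of windows 300 bp from members. TATAAA stood in 19.2% of members (14.8 to 24.2%), 23.5% of promoter peaks and 8.51% of uncalled candidates, and TAATTA in 12.5% of members, 10.9% of promoter peaks and 6.61% of uncalled candidates; both are A- and T-rich words in windows low in G+C, and the part of base composition in these shares was not tested.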

How the data were processed

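The authors deposited narrowPeak lists on assembly dm6, per the labels: ranked candidates and a thresholded set for each of 2 replicates, and a conservative set, a larger set and ranked lists for the series. The signal and the score (a whole number up to 1000, at least 830 in the conservative set) are the authors' deposited values; caller and aligner: not given in the sources used here. In the series ranked list, 10 columns of input values were not matched to a sample and not used. Summit offsets are the authors' deposited positions. Control libraries and read depth were not analysed here.

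Summits were annotated with Ensembl release 115 (starts of pseudogenes and transposable elements left out; pseudogenes counted as gene bodies) and sequence was read from the RefSeq assembly of dm6. Uncalled candidates were entries of the series ranked list that overlapped no conservative peak. Overlap meant 1 bp or more. Shares have exact Clopper-Pearson 95% intervals and differences Newcombe intervals; 4 shares were compared with 2 classes by 2-sided Fisher's exact tests, p-values adjusted by Benjamini-Hochberg, in scipy 1.17.1 (numpy 2.4.6, Python 3.11.15), tested on simulated data. Peaks are not replicates, so p-values cover counting error only. Named genes are those closest to the 15 highest members, those at the limits, those closest to 3 or more members or in gaps with 3 or more or in the 3 widest gaps, and up to 3 per gene list; further names were chosen after their values were seen. Members, lists and words were chosen with earlier results of these data known. Alternatives changed the peak set, replicate, limits, gene models, overlap rule and windows.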

Additional observations from a re-analysis of the deposited data

How the results depend on the processing

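Of 77 recomputed values, 64 stayed within the tolerance set for their kind: counts within 1.5 times, tested shares on the same side of the threshold, other shares within the exact 95% interval of the reported value, and G+C and the signal ratio within 1 SD of the values of the 2 replicates (2.28 points and 0.229). This tally does not measure robustness. Counting pseudogene and element bodies as genes left 286 members and counting neither left 287, so values under these settings could hardly change. For G+C and the signal ratio, the replicate sets that gave the tolerance were also judged by it. The members numbered 540 in the larger set and 120 above the median signal. With each replicate's own set they numbered 249 to 404, with G+C of 33.3 to 36.6%, a median signal of 0.699 to 1.02 of the promoter median, CACTG in 20.1 to 21.8%, a promoter peak at the closest gene in 14.9 to 16.6%, divergent neighbours in 28.5 to 30.4% and either facing word in 30.9 to 38.4%. The share with a promoter peak at the closest gene was 24.1% in the larger set. It was 21.6% with a promoter window of 1000 bp and 7.67% with 200 bp. With member and promoter peak both required to be above the median signal, it was 8.33%. With protein-coding starts only, 35.7% of members lay between divergent genes. Either facing word was in 33.1% of members in the larger set. Above the median signal the replicate 2 share was 86.7% of members and no longer differed from promoter peaks by the test. With 100 bp windows the CACTG share was 59.2% of members and passed. The cause was not tested. No paired analysis was possible because there was 1 group and no contrast between groups. Read depth is unknown, so the lists' own thresholds limit which sites were called, and 2 replicates give no more than a range.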
